A study of Mus musculus with 2 samples.

Results

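The nuclear-encoded subunits of the respiratory chain and the ATP synthase were followed through single mouse fibroblasts that had been sorted by the brightness of a circadian reporter. The members were the rows of the count table whose gene symbol begins with Nduf (Ndufaf assembly factors excepted), Sdha to Sdhd, Uqcr, Cox4 to Cox8 or Atp5, with pseudogenes removed and a mean over cells of at least 1 CPM (counts scaled to a common total per cell). Of 33757 features in the table, 94 met the symbol part of the rule and 77 were members. These were 34 subunits of complex I, 4 of complex II, 8 of complex III, 14 of complex IV and 17 of complex V. Of the other 17 features, 8 carried a pseudogene name, 2 were annotated as pseudogenes (Ndufa11b and Cox6c2) and 7 lay under 1 CPM. The 4 Sdhaf genes, which encode assembly factors of complex II, were not counted as subunits. Atp5s, which encodes a protein related to coupling of the ATP synthase, entered by its symbol and was counted with complex V.

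The cells were NIH3T3-Rev-VNP1-H2B-iRFP fibroblasts, a derivative of the NIH3T3 mouse fibroblast line with a Venus reporter for the clock repressor Nr1d1 and a near-infrared fluorescent histone. They were unsynchronized and had reached 95% confluency. Single cells were sorted into 2 plates of 384 wells and sequenced with FLASH-seq, which covers transcripts over their full length. All cells came from this 1 line, and no other genotype or treatment was included. Every cell on plate 1 came from the high and every cell on plate 2 from the low near-infrared sort, so that sort and the plate cannot be told apart. Within a plate, 4 Venus gates of 96 cells were ordered from gate 1, the dimmest, to gate 4, the brightest. Median Venus intensity rose from 65132 to 3448790 arbitrary units on plate 1 and from 64611 to 3152410 on plate 2. A gate took up 6 neighbouring well columns, at 1 position shared by the plates, so the gate and the position on the plate cannot be told apart either.

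The respiratory chain passes electrons from NADH (complex I) or succinate (complex II) through ubiquinone, complex III and cytochrome c to oxygen at complex IV. Complexes I, III and IV pump protons across the inner mitochondrial membrane, and complex V, the ATP synthase, uses the gradient to make ATP. All complexes but II combine subunits from nuclear genes with subunits encoded in mitochondrial DNA. Several complex IV subunits exist as a ubiquitous form and as forms best known from heart, muscle or testis, among them Cox7b and its testis-associated relative Cox7b2.

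After quality filters 762 cells remained, 383 on plate 1 and 379 on plate 2, with 151173 to 1618022 counts each. Plate 1 held 320679261 and plate 2 held 321542588 counts over all its wells. Counts were summed per plate and gate, giving 8 sums of 76042157 to 86612194 counts. The 9 fibroblast markers together held 20120 to 26440 CPM in these sums, while epithelial, immune, endothelial and muscle lists held at most 7.74, 0.846, 0.707 and 11.9 CPM. Of 6 male germ cell markers 3 were matched, and these held at most 0.0785 CPM together. Some fibroblast markers moved along the Venus axis: Vim and S100a4 rose, whereas Col1a1, Col1a2, Col3a1, Fn1 and Thy1 fell (adjusted p from edgeR's quasi-likelihood test between 0.000877 and 0.0467). Their part in the results below was not tested.

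The members held 1.74% of all counts, with a median level of 158 CPM, and 74 of 77 were detected in at least 99% of the cells. The 3 others were Cox6a2, Cox7b2 and Atp5s. The most abundant member per kilobase of exon was Cox8a at 1012 CPM per kilobase, against a median of 92.0 over the 77. Atp5b, the catalytic beta subunit of the ATP synthase, had the most counts of complex V, and Cox4i1, the ubiquitous form of subunit 4, the most of complex IV. Ndufa10, an accessory subunit, led complex I with 275 to 324 CPM over the 8 sums. Sdha, the flavoprotein of complex II, led its complex with 181 to 225 CPM, and Uqcrh, the hinge protein, led complex III with 267 to 290 CPM. None of these last 3 passed the test along the Venus axis described next (adjusted p by edgeR 0.208 for Ndufa10, 0.172 for Sdha and 0.721 for Uqcrh). The complex I accessory subunits Ndufb8 and Ndufs5 stood low, at 8.65 to 13.8 and 10.4 to 13.1 CPM. Ndufb8 shares exon sequence with the annotated gene Gm20538 on the same strand, but only 1.87% of its 75-base windows. For Ndufs5, 15.7% of such windows also occur in another gene. The part of such overlaps in their low counts was not tested.

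The first question was whether subunit transcripts followed the reporter. Of 77 members, 26 increased, 3 decreased and 48 were not called over the 4 gates. This was tested by edgeR's quasi-likelihood test on the 8 sums (Benjamini-Hochberg adjusted p under 0.05 over 18430 genes), and a trend is given as the log2 change per gate step with its standard error. Among all genes tested, 6.78% were called higher and 8.64% lower, or 15.4% in either direction, against 33.8% of the members higher and 37.7% in either direction. Since abundant genes are called more often, the share among the 4500 genes of at least 40 CPM is a closer background: 13.7% higher, 17.8% lower and 31.4% in either direction. Of the 72 members at that level, 25 were called higher and 2 lower. The median trend was 0.04 over members and -0.0057 over all genes at that level. On each plate alone all 26 rising members kept a positive slope. The calls were made on these same 2 plates, so this is no separate support. The counts were smaller with fewer gates: without the dimmest gate 6 members were called higher and 1 lower, and without the brightest 6 and 0. Calls over all genes were fewer as well, at 518 higher and 621 lower of 17968 without the dimmest gate. Without the brightest they were 153 and 205 of 17790. In those reduced fits, 23 and 42 members had an unadjusted p under 0.05 in the higher direction, 8 and 2 in the lower. With plain library totals in place of TMM scaling, 57.8% of all called genes rather than 44.0% were higher, and 36 members were called higher and 3 lower, beside 8.55% and 6.25% of all genes tested.

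**Figure D1:**
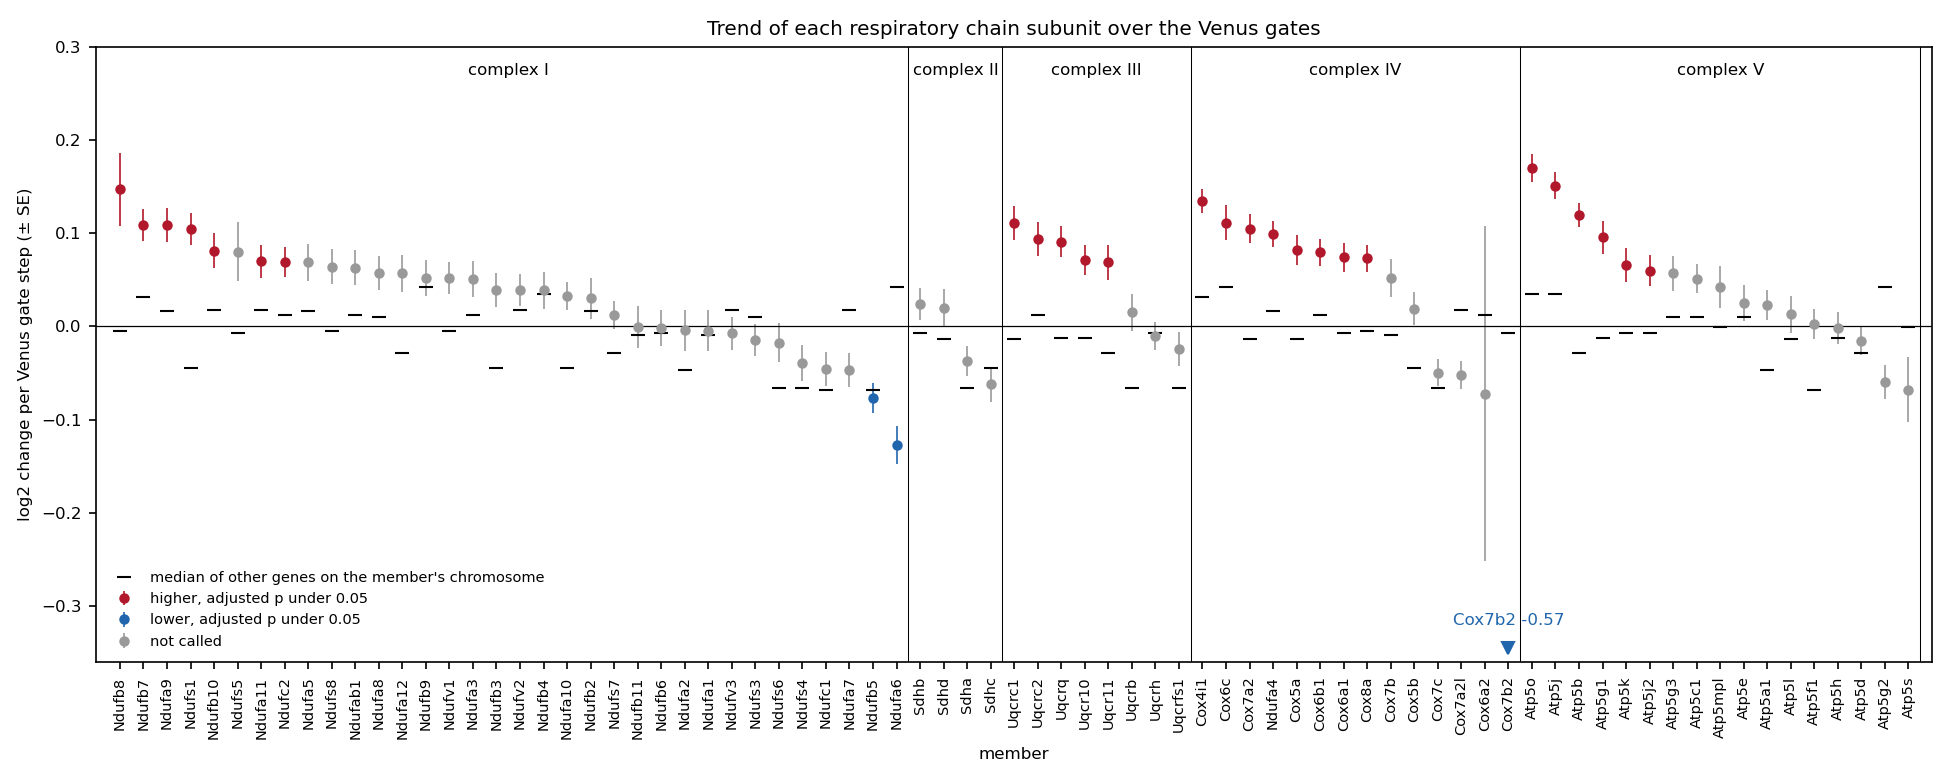
Each point is the log2 change per Venus gate step of 1 member (± SE from edgeR, 8 sums), grouped by complex; black ticks mark the median trend of the other genes of at least 40 CPM on the member's chromosome. The 26 called rises lie between 0.06 and 0.17, and Cox7b2 at -0.57 is placed at the lower edge, off the scale.

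The rises were uneven among the complexes. In complex III 5 of 8 members and in complex IV 8 of 14 rose, compared with 6 of 17 in complex V and 7 of 34 in complex I. In complex II none of 4 was called by edgeR, with 1 lower at an unadjusted p under 0.05, and DESeq2 called that 1 member lower. No member of complex III fell, by edgeR or DESeq2 and also at an unadjusted p under 0.05. In complex V none was called lower by edgeR, while 1 fell at an unadjusted p under 0.05, and DESeq2 also called 1 lower. Differences between the complexes were not tested, because a score over chosen members carries no p-value here.

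The summed level of complex IV was 4894, 5294, 5635 and 6079 CPM from gate 1 to gate 4 on plate 1 and 5139, 5309, 5853 and 6066 CPM on plate 2. It climbed at every gate on both plates, ending 1.24-fold and 1.18-fold above gate 1. Complex V ended 1.19-fold and 1.14-fold above gate 1, and complex III 1.17-fold and 1.10-fold. Complex I changed less, at 1.07-fold and 1.06-fold, and complex II stayed at 1.01-fold and 1.02-fold. All sums in this paragraph are CPM on library totals without TMM scaling, unlike the calls. The TMM factors rose from gate 1 to gate 4, from 0.957 to 1.01 on plate 1 and from 1.02 to 1.04 on plate 2. TMM scaling would thus lower every fold given here, and no direction is read from complex II. The 13 subunits encoded in mitochondrial DNA ended at 0.913-fold and 0.981-fold the level of gate 1, with gate 3 above gate 2 on both plates. Of these 13 genes 2 fell in edgeR's test, mt-Co1 (-0.05, adjusted p = 0.0187) and mt-Cytb (-0.06, adjusted p = 0.00888), and 12 of 13 trends were negative. That count of 2 is to be read against the 17.8% called lower among genes of at least 40 CPM. This background does not cover mt-Atp6, mt-Atp8, mt-Co2, mt-Co3, mt-Nd3 and mt-Nd4l, whose means were 0.988 to 11.1 CPM. The count of signs and the median give these genes of low count the same weight as those with many counts. Counts of mt-Nd1 reached a mean of 20526 CPM, and the source of so wide a gap among mitochondrial genes was not tested. Their low counts are thus not a measure of low expression. The median trend was -0.05 for the mitochondrial and 0.04 for the nuclear genes, and these signs held under every scaling run.

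**Figure D2:**
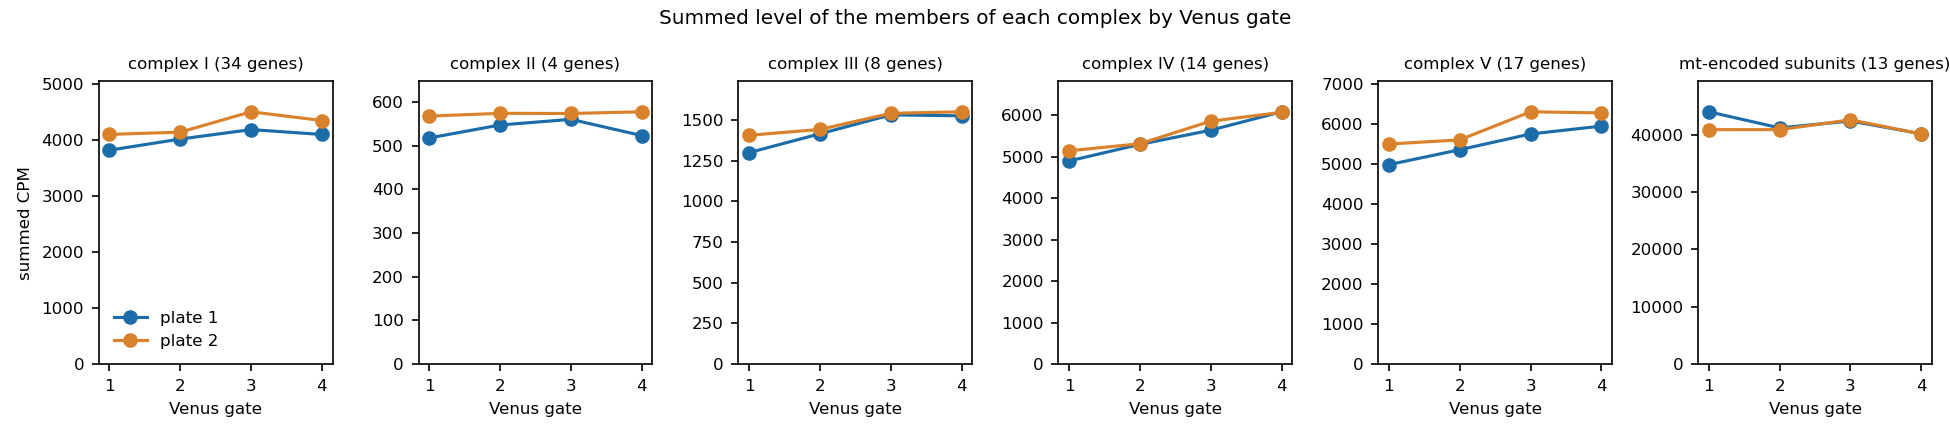
Summed CPM of the members of each complex (vertical axes start at 0) against Venus gate, 1 to 4 from dimmest to brightest, for plate 1 (blue) and plate 2 (orange), beside the 13 subunits encoded in mitochondrial DNA. Complexes III, IV and V end above their start on both plates, and complex II is nearly flat.

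The shape over the gates differed too. The median member stepped up by 0.07 (log2) from gate 1 to 2 and by 0.11 from gate 2 to 3, then down by 0.01 from gate 3 to 4. Over all genes tested of at least 40 CPM the median steps were 0.0056, 0.0091 and 0.0192. These steps were taken on CPM without TMM scaling, unlike the trends. At the last step complex I had -0.04, complex IV 0.06 and complex V 0.02, the latter close to the step of all genes. The TMM factors rose from gate 3 to gate 4, from 0.982 to 1.01 on plate 1 and from 1.01 to 1.04 on plate 2. TMM scaling would thus lower each of these last steps, and the direction of complex V at that step depends on the scaling. In 30 of 77 members the CPM of gate 4 lay below that of gate 3 on both plates. The share over all genes was not computed, so this count is a description only.

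**Figure D3:**
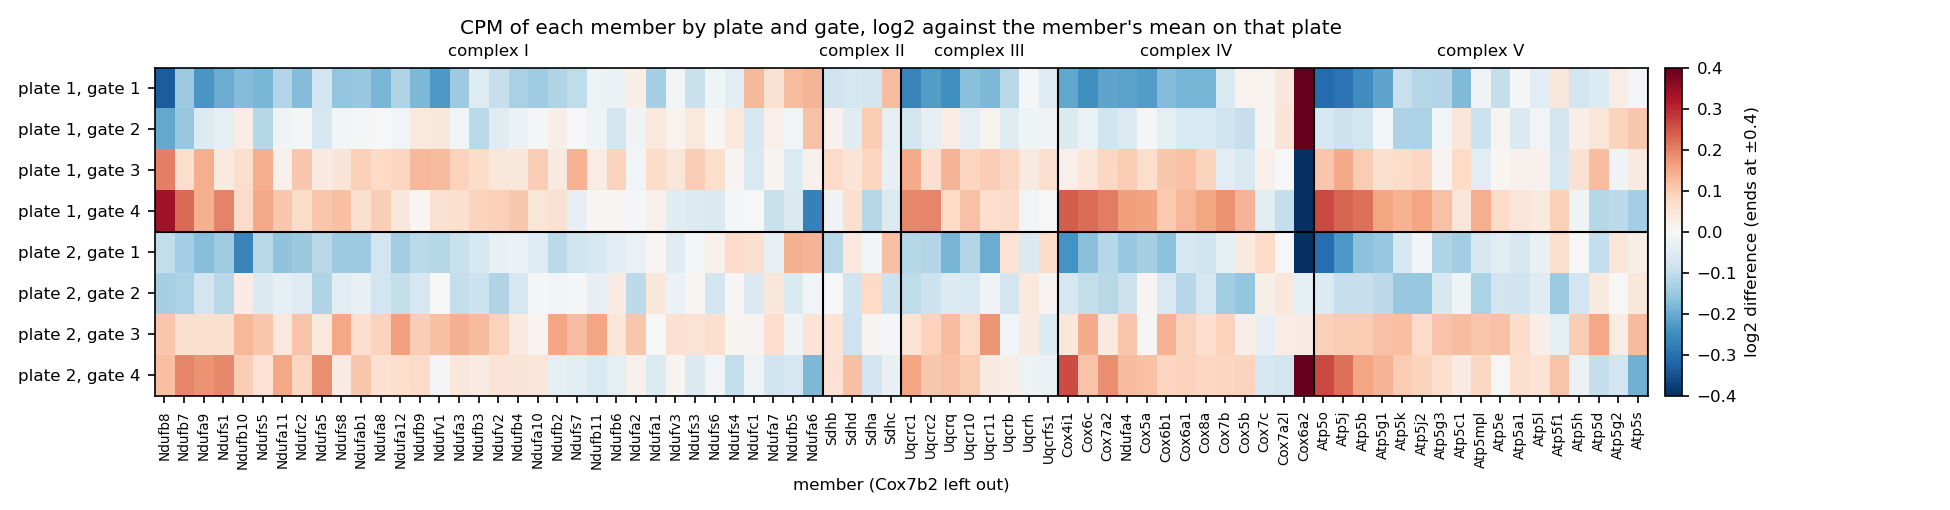
Columns are the members except Cox7b2, ordered by complex and trend, and rows are the 8 sums; colour is log2 CPM against the member's mean on the same plate, ending at ±0.4. The left columns of complexes III, IV and V run from blue in gate 1 to red in gate 4 on both plates, and Cox6a2 runs in opposite directions on the plates.

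Among the ATP synthase genes, Atp5o, which encodes the subunit that joins the catalytic head to the peripheral stalk, had the steepest rise of all members. Its CPM was 113, 133, 151 and 167 over the gates of plate 1 and 120, 143, 158 and 178 on plate 2. Every gate was higher than the one before on both plates, and gates 3 and 4 of each plate exceeded gates 1 and 2 of both (trend 0.17 ± 0.015, adjusted p by edgeR = 0.0013). Of its 75-base windows 34.2% also occur, on either strand, in other annotated genes. These include D430001F17Rik and Gm15976, which overlap its exons on the opposite strand, and another entry named Atp5o on the same strand. Reads from such windows cannot be assigned to a single gene by sequence alone. Atp5j, coupling factor 6 of the same stalk, gave 230, 266, 313 and 332 CPM on plate 1 and 248, 272, 312 and 338 CPM on plate 2. It rose by 0.15 ± 0.014 per gate (adjusted p = 0.00151), again without overlap between the dimmer and the brighter pair of gates. Atp5j shares exon sequence with Gabpa on the opposite strand, and Gabpa also rose, by 0.14. The use of strand in counting is not given in the sources used here, so reads of those 2 genes cannot be told apart in the overlap.

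Atp5b was counted at 1431, 1615, 1826 and 1980 CPM on plate 1 and 1668, 1751, 2004 and 2083 CPM on plate 2. The catalytic subunit thus climbed at each gate, by 0.12 ± 0.012 per step (adjusted p by edgeR = 0.00202). Its partner in the catalytic head, Atp5a1, had a trend of 0.02 and was not called (adjusted p = 0.39), nor was Atp5c1, the central stalk's gamma subunit (0.05, adjusted p = 0.06). The genes of the membrane ring, which encode 1 mature subunit c, differed among themselves: Atp5g1 rose by 0.10, whereas Atp5g3 (0.06, adjusted p = 0.0894) and Atp5g2 (-0.06, adjusted p = 0.0702) were not called.

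In complex IV, Cox4i1 gave 1173, 1301, 1373 and 1603 CPM on plate 1 and 1109, 1248, 1351 and 1568 CPM on plate 2. It rose at every gate, with the brightest gate of either plate above all others (0.13 ± 0.013, adjusted p by edgeR = 0.0016). Cox6c, a small membrane subunit, gave 531, 619, 651 and 735 CPM on plate 1. On plate 2 it gave 634, 666, 789 and 770 CPM, so the last gate did not exceed the third there (0.11 ± 0.019, adjusted p = 0.0098). Cox5a, one of the subunits facing the matrix, rose by 0.08 and Cox5b, its neighbour there, had 0.02 (adjusted p = 0.54).

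The isoform pairs of complex IV were represented almost wholly by their ubiquitous forms. Cox4i1 stood against 0.118 CPM of Cox4i2, the hypoxia and lung form, and Cox6b1 (0.08, adjusted p by edgeR = 0.0109) against 0.0057 CPM of the testis form Cox6b2. Cox8a (0.07, adjusted p = 0.0174) stood against 0.0080 CPM of the muscle form Cox8b, and Cox8c was not analysed here. Cox7a2 (0.11, adjusted p = 0.00578) stood against 0.041 CPM of Cox7a1, the heart and muscle form. Cox7a2l, known for its role in joining complexes III and IV, had a trend of -0.05 that missed the threshold (adjusted p = 0.0544). Cox7c had the same trend (-0.05, adjusted p = 0.0597), and DESeq2 called both lower (adjusted p = 0.0172 and 0.0274). Ndufa4, once placed in complex I and now known as a complex IV subunit, rose by 0.10 (adjusted p = 0.00524), whereas Ndufa4l2 lay at 0.635 CPM. Cox6a1 rose by 0.07 (adjusted p = 0.0214). Of these calls, that of Cox6a1 was lost with an additive linear gate term (adjusted p = 0.0617) and between the outer gates (adjusted p = 0.0507), that of Cox6b1 with the linear term (adjusted p = 0.0589) and that of Cox8a with no plate term (adjusted p = 0.0811). Cox6a2, the heart and muscle form beside Cox6a1, was just inside the limit for members, as Ndufa4l2 was just outside it. Cox6a2 had 0.669 to 1.84 CPM over the 8 sums and was not called (-0.07 ± 0.18).

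In complex III, the core protein Uqcrc1 gave 188, 216, 252 and 259 CPM on plate 1 and 238, 240, 267 and 287 CPM on plate 2. It rose at every gate (0.11 ± 0.019, adjusted p by edgeR = 0.00942), although plate 2 started above the second gate of plate 1. The second core protein Uqcrc2 rose by 0.09, and the small subunits Uqcrq, Uqcr10 and Uqcr11 by 0.09, 0.07 and 0.07. Uqcrfs1, the Rieske iron-sulfur protein, had -0.02 (adjusted p = 0.443).

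In complex I the rises were spread over the arms of the enzyme. Ndufs1, the core subunit that holds several iron-sulfur clusters, gave 129, 144, 151 and 169 CPM on plate 1 and 152, 155, 175 and 191 CPM on plate 2 (0.10 ± 0.017, adjusted p by edgeR = 0.00832). Ndufb7, an accessory subunit of the membrane arm, gave 71.9, 71.5, 83.5 and 93.0 CPM on plate 1 and 75.8, 76.2, 87.0 and 95.3 CPM on plate 2. The dimmer gates of Ndufb7 were alike, and the rise came over gates 3 and 4 (0.11 ± 0.017, adjusted p = 0.00668). Ndufb8, of low count, rose by 0.15 ± 0.039, with a wider error and an adjusted p of 0.0431. It lost its call with no plate term in the model (adjusted p = 0.0866), with an additive linear gate term (adjusted p = 0.0534) and between the outer gates (adjusted p = 0.0818).

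The members that fell were few. Ndufa6, an accessory subunit that holds the mitochondrial acyl carrier protein, gave 304, 300, 280 and 229 CPM on plate 1 and 313, 282, 295 and 251 CPM on plate 2. Gate 4 was lowest on each plate, and both gate 4 values lay under all others (-0.13 ± 0.020, adjusted p by edgeR = 0.00798). Without the brightest gate the trend of Ndufa6 was -0.06 (adjusted p = 0.375). Ndufb5, a membrane arm subunit, gave 188, 171, 166 and 166 CPM on plate 1 and 194, 168, 174 and 167 CPM on plate 2. Here gate 1 stood above all others (-0.08 ± 0.016, adjusted p = 0.0201), and without it the trend was -0.04 (adjusted p = 0.452). Ndufb5 shares exon sequence with Mrpl47 on the other strand. The third decline was that of Cox7b2.

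The chromosome of a member was measured beside its trend, because gene medians differed between chromosomes. Over the other genes of at least 40 CPM, the median trend ran from -0.08 on chromosome 14, -0.07 on chromosome 3 and -0.07 on chromosome 13 to 0.03 on chromosome 8, 0.04 on chromosome 16 and 0.04 on chromosome 15. On chromosome 13, 40.8% of 120 such genes were called lower and 0.833% higher, and on chromosome 8, 31.5% of 216 were called higher and 10.2% lower. The order of the chromosomes differed somewhat between plates, with -0.06 and -0.08 on chromosome 13 and 0.03 and 0.03 on chromosome 8. None of the 6 members on chromosome 13 (Cox7c, Ndufs4, Ndufs6, Sdha, Uqcrb and Uqcrfs1) was called by edgeR, and both members on chromosome 8 (Cox4i1 and Ndufb7) rose. Atp5o and Atp5j lie on chromosome 16, and Ndufb5 on chromosome 3. Measured against the median of its chromosome, the trend of Atp5o was 0.14 higher, that of Cox4i1 0.10 higher and that of Ndufb5 -0.0088 apart. In all, 65 of 77 members had a trend above their chromosome's median. Those include all 26 called higher, which the call itself fixed, since the smallest called rise (0.06) exceeded the highest chromosome median (0.04). The median distance of the members was 0.05, beside a median trend of 0.04. By complex that distance was 0.04 for I, 0.03 for II, 0.08 for III, 0.07 for IV and 0.05 for V.

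**Figure D4:**
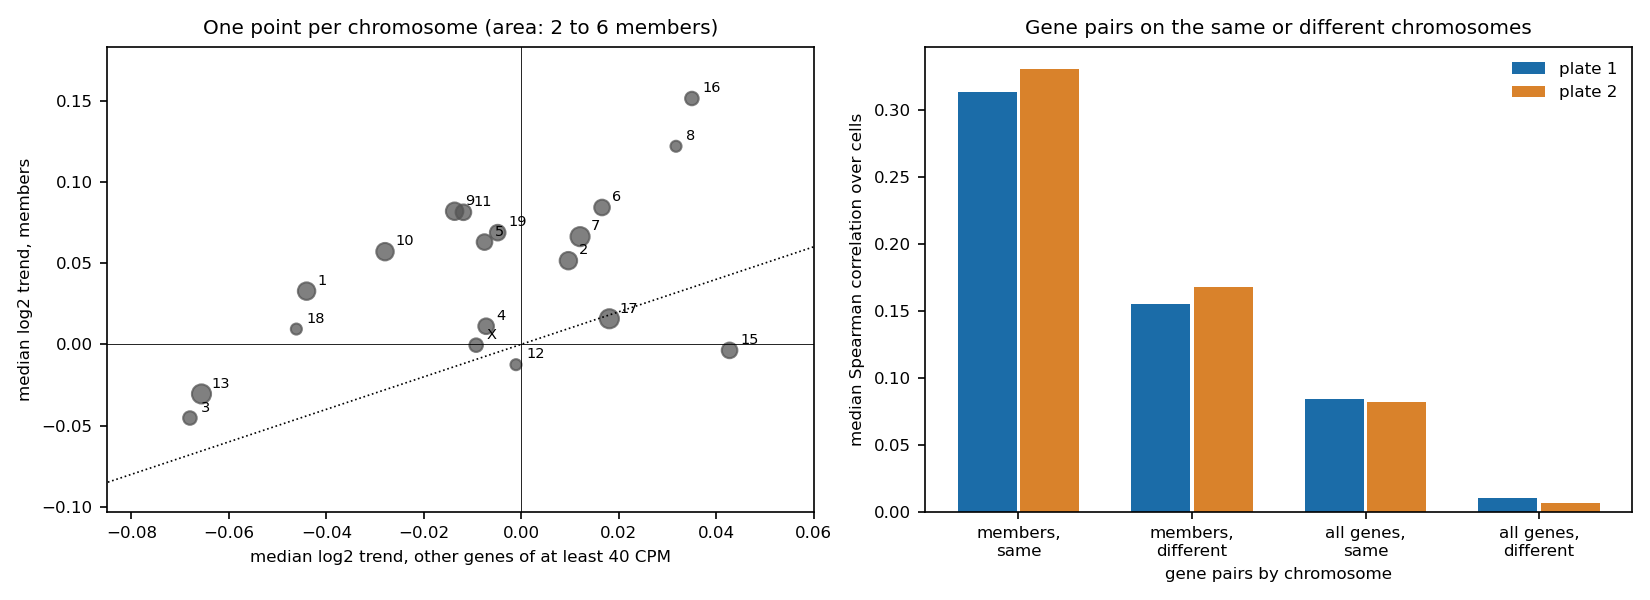
Left, 1 point per chromosome that holds members: the median trend of its members (vertical) against that of its other genes of at least 40 CPM (horizontal), with point area by number of members and a dotted line of equality. Right, median Spearman correlation over the cells of a plate for gene pairs on the same or on different chromosomes, with member pairs above all gene pairs in each class.

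Cell by cell, members varied together. Spearman correlations were computed over the 383 cells of plate 1 and the 379 of plate 2, which share their library preparation and include all 4 gates. They are descriptions without a p-value. The median over pairs of the 72 members of at least 40 CPM was 0.162 on plate 1 and 0.177 on plate 2, against 0.014 and 0.010 for all genes at that level. The values differed by chromosome as well. Member pairs on the same chromosome (118 pairs) had medians of 0.313 and 0.331, and pairs on different chromosomes (2438 pairs) had 0.155 and 0.168. For all genes with a known nuclear chromosome the corresponding medians were 0.084 and 0.082 on the same and 0.010 and 0.0066 on different chromosomes. Of the 10 highest member pairs, 6 on plate 1 and 5 on plate 2 shared a chromosome. The highest on both was Atp5j with Atp5o (chromosome 16, 0.687 and 0.714). Atp5g1 with Uqcrq (chromosome 11) had 0.682 and 0.658, and Ndufa12 with Atp5b (chromosome 10) had 0.562 and 0.661. Pairs across chromosomes reached similar values, as for Cox6c with Cox7b (0.615 and 0.584) and Cox7b with Cox5b (0.589 and 0.616).

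The summed CPM of complex IV per cell followed the cell's own Venus intensity with a Spearman correlation of 0.627 on plate 1 and 0.545 on plate 2. Complex III gave 0.424 and 0.292, complex V 0.413 and 0.368, complex I 0.281 and 0.248, and complex II 0.00027 and 0.011. Within gates, after each gate was ranked separately, complex IV fell to 0.110 and 0.062, so the relation lay largely between gates. The sum of all members varied by a coefficient of variation of 11.9% and 12.8% over cells. It showed almost no relation to forward scatter (0.044 and -0.059) or to the total count (-0.032 and 0.054). Its correlation with the mitochondrial percentage of the cell was -0.268 and -0.303. That percentage had gate medians of 9.77, 9.26, 9.30 and 8.68 on plate 1 and 7.24, 7.79, 7.91 and 7.02 on plate 2. With mitochondrially encoded genes taken out of the totals, 27 members were called higher and 3 lower, beside 1273 and 1554 of all 18388 genes tested.

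Between the plates, and thus between the near-infrared sorts, the members differed little. None passed 1.5-fold with the same sign in all 4 gates, while 3.81% of all genes tested did (1.47% higher and 2.34% lower on plate 1). That share covers genes of all levels, and none was computed for genes as abundant as the members. The absence is thus not shown to be particular to the members. This comparison has 1 sample a side and no test, and its intervals cover counting error only, since PCR reads are not independent molecules. The ratio of plate 1 to plate 2 was lowest for Cox7b2, at 0.685 (exact binomial 95% interval 0.651 to 0.722), but plate 1 was higher in 2 of its 4 gates. Ndufb8 (0.870, 0.832 to 0.911) and Ndufs1 (0.879, 0.868 to 0.890) followed, lower on plate 1 in every gate. At the other end stood Cox7c (1.05, 1.03 to 1.06, higher on plate 1 in all 4 gates), Uqcrfs1 (1.04, in 3 of 4) and Ndufb6 (1.03, in 3 of 4). The median log2 ratio over members was -0.08 against -0.06 over all genes with library totals, and -0.02 against 0.00 with TMM scaling.

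Genes that partner with the chain were counted from lists chosen by role. Cycs, which encodes the cytochrome c that carries electrons from complex III to IV, gave 42.0, 50.05, 55.3 and 65.4 CPM on plate 1 and 46.7, 51.7, 51.9 and 64.4 CPM on plate 2. It rose at each gate (0.16 ± 0.022, adjusted p by edgeR = 0.00496). Of 46 assembly factors tested, 6 rose and 2 fell, beside 6.78% higher and 8.64% lower among all genes tested and 13.7% and 17.8% among those of at least 40 CPM. The 6 were Ndufaf4 (0.18), Ecsit (0.13) and Ndufaf1 (0.10) of complex I assembly, Cox10 (0.15) of haem A synthesis, Cox18 (0.11), which inserts a complex IV subunit into the membrane, and Lrpprc (0.10), which stabilises mitochondrial mRNA. Those that fell were Coa3 (-0.18), a complex IV factor, and Sdhaf4 (-0.13), a complex II factor. Of 12 regulators of mitochondrial gene expression, 2 rose and 1 fell, against the same background. Gabpa and Gabpb1 encode the 2 subunits of an ETS-family factor, and their trends had opposite signs (0.14, adjusted p = 0.0218, and -0.13, adjusted p = 0.0336). Ppargc1b, a coactivator, rose by 0.25 from 2.52 CPM in gate 2 of plate 1, its lowest sum, to 5.72 CPM in gate 4 of plate 2.

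Because many members moved together, the 250 bases before their annotated starts were searched, on both strands, for GCGC, any 2 bases and GCGC again, the letters bound by NRF1, and for CCGGAAG, an ETS site of the kind bound by Gabpa. Promoter windows from RefSeq (GRCm38.p6) were matched to 65 members, some with several starts, which gave 70 windows. Not matched were Atp5a1, Atp5mpl, Cox4i1, Cox6a2, Cox6c, Ndufa2, Ndufb9, Ndufs1, Sdhc, Uqcrb, Uqcrc2 and Uqcrq. The NRF1 letters occurred in 16 of 70 member windows (22.9%) and in 1635 of all 32851 windows (4.98%). Among the members, they occurred in 3 of 22 windows of genes called higher (13.6%) and in 13 of the 48 others (27.1%). The ETS letters occurred in 12 member windows (17.1%) and in 6.91% of all windows, and in 5 of 22 and 7 of 48 within the members. A match is a description of the letters and not evidence of binding. The windows of the 3 called members with NRF1 letters are printed here, since they show how such matches lie, with matches to either motif in capitals. Atp5k is at chr5:108434400-108434649 on the minus strand, Cox6a1 at chr5:115348959-115349208 on the minus strand and Ndufa11 at chr17:56717512-56717761 on the plus strand.
Atp5k: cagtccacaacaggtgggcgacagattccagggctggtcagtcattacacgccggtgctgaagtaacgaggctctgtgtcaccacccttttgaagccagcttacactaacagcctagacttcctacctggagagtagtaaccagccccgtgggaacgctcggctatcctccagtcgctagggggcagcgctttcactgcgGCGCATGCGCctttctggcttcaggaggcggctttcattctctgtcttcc
Cox6a1: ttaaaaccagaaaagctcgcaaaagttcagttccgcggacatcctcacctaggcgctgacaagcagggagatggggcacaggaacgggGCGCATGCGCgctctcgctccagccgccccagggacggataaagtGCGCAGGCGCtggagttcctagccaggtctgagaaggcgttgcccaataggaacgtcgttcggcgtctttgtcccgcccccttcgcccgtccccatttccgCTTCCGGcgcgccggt
Ndufa11: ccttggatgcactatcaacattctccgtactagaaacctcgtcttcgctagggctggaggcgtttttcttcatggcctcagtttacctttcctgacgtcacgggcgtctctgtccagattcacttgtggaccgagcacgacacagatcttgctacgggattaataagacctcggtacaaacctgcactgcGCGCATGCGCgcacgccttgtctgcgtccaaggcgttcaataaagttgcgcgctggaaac

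The last question was how Cox7b2 compared with the ubiquitous forms. Cox7b2 lies on chromosome 5 and Cox7b on chromosome X, and their coding sequences were aligned to see whether reads could be told apart. The coding bases before the stop codon (GENCODE M21, GRCm38) number 240 for Cox7b and 246 for Cox7b2, and 160 of 247 aligned columns were identical (64.8%), with no identical run above 11 bases. Neither transcript shares a 75-base window, the read length, with the other or with any other annotated gene. In the lines that follow, capitals mark the bases that differ from the other gene or have no partner in it.
Cox7b: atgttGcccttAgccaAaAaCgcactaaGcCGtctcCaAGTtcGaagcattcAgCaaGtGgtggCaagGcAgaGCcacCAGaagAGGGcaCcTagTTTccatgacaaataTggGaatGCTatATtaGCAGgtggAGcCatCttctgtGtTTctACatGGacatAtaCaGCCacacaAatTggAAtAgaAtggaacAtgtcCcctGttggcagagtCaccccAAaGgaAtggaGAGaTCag
Cox7b2: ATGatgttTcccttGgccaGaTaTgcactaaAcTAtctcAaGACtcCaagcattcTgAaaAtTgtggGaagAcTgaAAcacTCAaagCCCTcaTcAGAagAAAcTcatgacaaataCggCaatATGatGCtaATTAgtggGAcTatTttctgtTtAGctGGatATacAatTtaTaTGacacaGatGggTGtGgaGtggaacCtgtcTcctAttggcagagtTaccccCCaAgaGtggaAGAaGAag

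Cox7b was read in 100% of cells and Cox7b2 in 193 of 762 (25.3%, exact 95% interval 22.3 to 28.6). That interval treats the pooled cells as independent draws, although they are not replicates of a condition. By plate and gate the share ran from 15.6% to 38.3%, a spread that the interval does not cover. Per kilobase of exon, Cox7b2 stood at 17.8 CPM per kilobase against 263 for Cox7b, 297 for Cox7a2, 310 for Cox7a2l and 196 for Cox7c. Over all cells there were 34.1 Cox7b counts for each Cox7b2 count. Thinned to 400000 counts per cell, 24.0% of 753 cells had a Cox7b2 read, so depth changed this share little. Germ cell markers stayed near 0, as given above.

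Cox7b2 gave 10.4, 6.67, 7.08 and 6.56 CPM over the gates of plate 1 and 25.7, 10.4, 4.61 and 4.37 CPM on plate 2. The dimmest gate was highest on both plates, but gates 2 to 4 were level on plate 1 and declined on plate 2. The fitted trend was -0.57 ± 0.14 per gate (adjusted p by edgeR = 0.0331), with -0.21 on plate 1 and -0.89 on plate 2. Cox7b2 was singled out with its earlier trend in these data known, so its trend and p-values are descriptions. The fitted trend was also unstable to the choice of gates. The trend was -0.36 (adjusted p = 0.212) without the dimmest gate and -0.75 (adjusted p = 0.104) without the brightest. Cox7b gave 288, 285, 292 and 341 CPM on plate 1 and 328, 307, 360 and 358 CPM on plate 2 and was not called by edgeR (0.05, adjusted p = 0.131). There were 12.8 Cox7b counts per Cox7b2 count in gate 1 of plate 2 and 81.9 in its gate 4.

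Cells with much Cox7b2 were mostly in the dimmest gates. A level of 50 CPM, chosen after the values were seen, was passed by 37 cells. They numbered 9, 2, 1 and 4 over the gates of plate 1 and 15, 3, 3 and 0 on plate 2, so 24 of 37 were in gate 1. The 5 cells with the most reads held 65.1, 41.7, 31.4 and 61.5% of the Cox7b2 counts of their gate on plate 1 and 36.5, 31.3, 58.9 and 49.7% on plate 2, so such concentration was not limited to gate 1. The cells at or under 50 CPM, a split by the Cox7b2 level itself that lowers gate 1 by construction, had 0.886, 5.05, 6.58 and 3.51 CPM on plate 1, and 3.001, 8.62, 2.87 and 4.37 CPM on plate 2. The share of cells with any read was highest in gate 2 of plate 2 (38.3%) and lowest in its gate 3 (15.6%), and was 22.1% and 32.6% in gate 1 of plates 1 and 2. Leaving out the cell with the most Cox7b2 reads in each sum gave a trend of -0.59 (adjusted p by edgeR = 0.0376). A cell was taken from the bright gates as well, so this does not measure the part of the highest gate 1 cells in the trend.

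**Figure D5:**
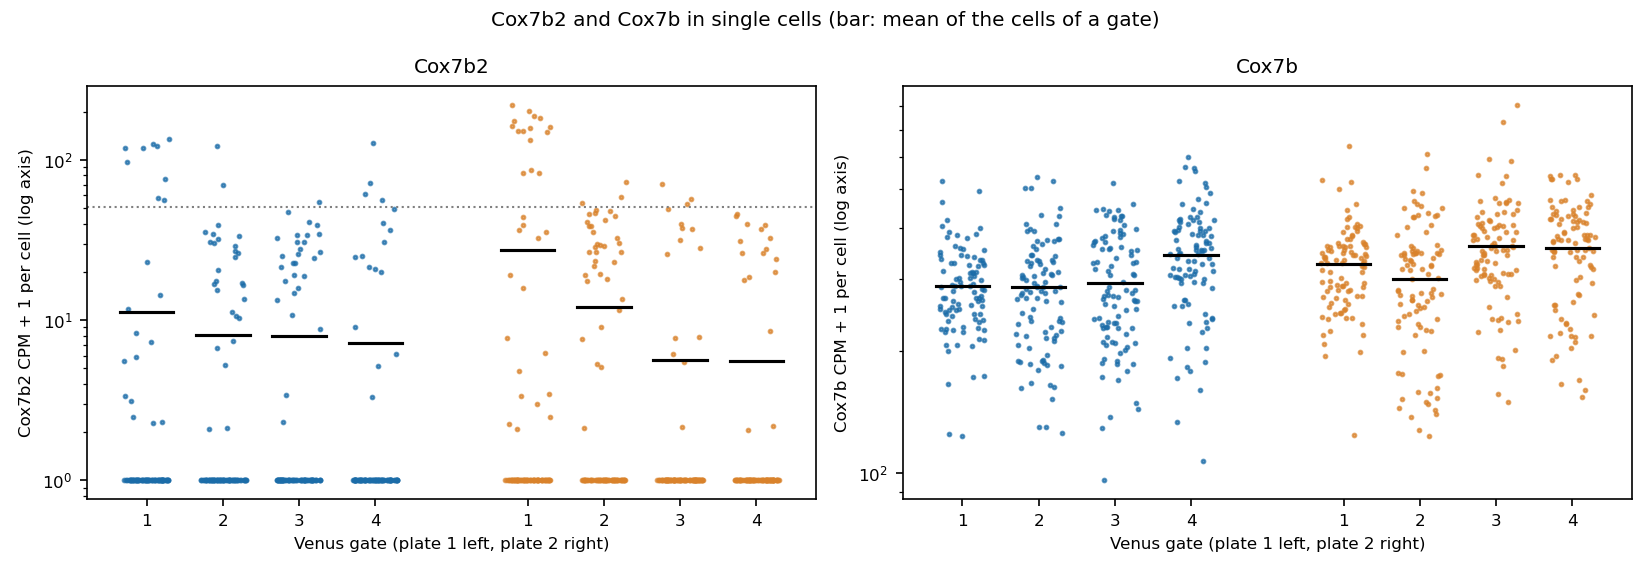
Each point is 1 cell; vertical log axes give CPM + 1 for Cox7b2 (left) and Cox7b (right), horizontal positions the Venus gates of plate 1 (blue) and plate 2 (orange), and black bars the mean of the cells. Cells above the dotted line (50 CPM of Cox7b2) number 9 and 15 in the dimmest gates and at most 4 in any other, whereas Cox7b is read in every cell.

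Over cells, the 5 genes whose pattern was most like that of Cox7b2 among 12119 genes of at least 1 CPM were Aim2 (mean Spearman correlation over the plates 0.41), Adarb2 (0.35), Ctsl (0.33), Dppa2 (0.33) and Fmr1nb (0.32). Among the least alike were the ribosomal protein genes Rpl7 (-0.30) and Rps28 (-0.30). The middle 95% of genes lay between -0.15 and 0.173. In such sparse counts these values are descriptions only. Fmr1nb was read in 3.41% of cells and, like the highest Cox7b2 cells, mostly in gate 1, with 2.13 and 10.4 CPM there and at most 0.0131 CPM in any other sum. Cox7b itself had a correlation of -0.209 and -0.316 with Cox7b2. Over the other 76 members the median was -0.039, with 46 negative, beside 0.021 and 41.1% negative among genes of at least 40 CPM.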

How the data were processed

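Single cells on 2 plates were the samples, and gene counts per cell were used as the authors deposited them; STAR 2.7.11a, SAMtools, bedtools and HTSeq and the build GRCm39 are named in the submitters' processing notes, without their roles. Fluorescence and scatter intensity values per cell came from the deposited sorting record and served to order the gates. Symbols matched 24902 of 33757 features, and GENCODE M21 served for names, chromosomes and overlaps only. Features without a symbol held 1.07% of counts. Cells with at least 1000 genes, at least 0.1 of the plate's median total and at most 25% mitochondrial counts were kept (762 of 768). No doublet caller was run, since 1 cell was sorted per well. Counts were summed per plate and gate and fitted in edgeR 4.0.16 (R 4.3.3; TMM, filterByExpr, gate as a factor plus plate, linear contrast, 3 residual degrees of freedom). DESeq2 1.42.0 and limma 3.58.1 were alternatives. Nothing in the labels says that the plates came from separate cultures, so p-values measure only the spread between these sums, which may be technical. The fit was tested on simulated data over 17812 genes: it recovered 26.9% of genes changed by 0.1 log2 per step, 94% at 0.2 and 100% at 0.4, with 7 false calls. The members and lists were chosen with earlier results of these data known. Genes named were the 8 largest called changes in each direction, isoform pairs, the most abundant member of each complex, the 3 extreme plate ratios each way, and called genes of the other lists, at most 8; further members are named where a count or partner subunit is described, chosen after their values were seen. Chromosome comparisons were added after the data were seen. Some genes that these rules would name are not reported here.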

Additional observations from a re-analysis of the deposited data

Results flagged for a closer look

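Among the members named by the rules given above, Cox6a2, Ndufb6 and Uqcrh had trends of opposite sign on the 2 plates. Members outside those rules did so too, such as Ndufa1 (0.023 on plate 1 and -0.032 on plate 2), Ndufa2 (-0.035 and 0.026) and Uqcrb (0.044 and -0.012). Cox6a2, the heart and muscle form of subunit 6a, had -0.50 on plate 1 and 0.36 on plate 2, from a mean level of 1.18 CPM and reads in 18.4% of cells. Ndufb6 had 0.0019 on plate 1 and -0.0051 on plate 2, and Uqcrh had -0.022 on plate 1 and 0.0017 on plate 2, both within 1 standard error of 0 in the joint fit (0.019 and 0.015). These differences were not tested, since each plate gives 1 sum per gate.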

How the results depend on the processing

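Against 26 members called higher and 3 lower, DESeq2 called 36 and 7, an additive linear term for the gate 17 and 3, the comparison of the outer gates 20 and 3, and limma on mean CPM 37 and 3. The calls over all genes changed with the setting too. Of 18430 genes, the main fit called 1250 higher and 1593 lower, and DESeq2 called 1613 and 1956. The linear term gave 813 and 1045, the outer gates 1079 and 1414, and limma 1738 and 1278. Without the plate as a replicate block, 18 were higher and 3 lower, and all of these were among the 26 and 3. That setting called 739 of all genes higher and 944 lower. Leaving out the dimmest gate (added after the data were seen) left 6 and 1, beside 518 and 621 of all 17968 genes tested. Leaving out the brightest left 6 and 0, beside 153 and 205 of 17790. Cox7b2 then had -0.36 and -0.75, with no call, and -0.21 to -0.89 on a single plate. The filter of at least 5 CPM in every sum removed Cox7b2 and gave 37 and 2, beside 1506 and 1542 of all 9363 genes tested. With mitochondrially encoded genes left out of the totals, the summed level changed by 0.034 per gate for complex I and 0.0043 for complex II, in place of 0.037 and 0.0077. No alternative reversed the direction of a named member that was called. Among those not called, Sdha had 0.0405 without the brightest gate, Cox6a2 0.36 on plate 2 alone, and the near-zero trends of Uqcrh and Ndufb6 became 0.007 and 0.0156 with library totals. On each plate alone the called members kept their signs (26 and 3 on either plate), which is no separate support, since the calls came from these same plates. The cause of these changes was not tested. The fit recovered 26.9% of genes made to change by 0.1 log2 per step, and whether that share holds for the members was not tested. Among the members, Atp5j2 was called at 0.06 (adjusted p by edgeR = 0.0476), whereas Ndufs5, of low count, was not called at 0.08 (adjusted p = 0.137).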

Other observations

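Ndufb1-ps, left out for its name, is listed by RefSeq as the protein-coding gene Ndufb1. It stood at 117 CPM, was read in 100% of cells and had a trend of 0.03 that edgeR did not call (adjusted p = 0.457). The annotated pseudogene Cox6c2 stood at 1.59 CPM and had a trend of 0.11 (adjusted p = 0.356), beside 0.11 for Cox6c, from which its reads may not be separable. Of the 77 members, 41 had no 75-base window in common with another annotated gene and 15 had over 10% in common, led by Atp5g2 (35.8%), Atp5o (34.2%) and Ndufb6 (27.8%). Chromosome 14 had the lowest median trend and held no member.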
